A study of Mus musculus with 3 samples.

Results

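The regions described here are methylated DNA regions of mouse epididymal fat that were called as peaks with folic acid in the drinking water and on neither other diet. The assay was MeDIP-seq (methylated DNA immunoprecipitation followed by sequencing): an antibody to methylated cytosine pulls down DNA fragments, and places with many fragments are called as peaks. The members were chosen by the presence of peaks: autosomal peaks of the 3 lists were pooled, peaks sharing at least 1 bp were merged, and a merged region was kept when it held a FAD peak and no ND or HFD peak. This gave 9887 FAD-only regions, each made of 1 FAD peak, out of 154503 merged autosomal regions (6.40%). They were 11.2% of the 88244 merged regions with a FAD peak (95% interval 11 to 11.4%). Because the peaks themselves chose the regions, these shares, their scores, their widths and their distances to other peaks describe the choice and carry no test.

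The mice were male C57BL/6J, 6 weeks old at the start, and were fed for 10 weeks until an age of 16 weeks. The ND group had a normal diet with about 10% of its energy from fat, the HFD group a high-fat diet with about 60%, and the FAD group the same high-fat diet with folic acid in the water at 20 μg/mL. HFD and FAD thus share the high-fat diet, and no group had folic acid on the normal diet. Each diet had 1 library, of a single animal or of several pooled animals (which of these, the sources used here do not say), so no difference between libraries has a replicate check. The autosomal lists held 96063 ND, 130093 HFD and 90352 FAD peaks, with median widths of 507, 587 and 447 bp. Their read depths are unknown. The 95% intervals are Wilson intervals that cover counting error over regions only. Whole fat holds adipocytes, leukocytes, vessel cells and connective tissue, and peak lists give no level of any marker, so the tissue label could not be checked against them.

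Cytosine methylation in mammals sits mostly at CG dinucleotides (CpG), and most CpG sites outside CpG islands are methylated, whereas the dense CpG islands at many gene starts usually are not. Folate carries one-carbon units that regenerate methionine and, through it, S-adenosylmethionine, the methyl donor of the DNA methyltransferases. In fat, promoter methylation has been studied most at genes of adipocyte identity and of hormones such as leptin.

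Few of the regions lay at annotated starts, as was so for every group of regions. Of 31365 autosomal promoter windows in the RefSeq table (GRCm38.p6, the assembly of mm10; 250 bases before to 50 after a start site), 54 (0.172%) held part of a FAD-only region. These windows belonged to 50 genes, 30 of them protein-coding, and 49 regions touched them. The 250 bases before the start site are shown for 6 of them, 5′ to 3′ on the strand of the gene, with each CpG in capitals, because they show how CpG content varied among the starts that only the FAD library marked. Tm4sf19, Tm9sf4 and Coq8a are among the 6 named protein-coding genes with the highest scores, and Lep, Mamstr and Lrsam1 were added after their values were seen.
Lep: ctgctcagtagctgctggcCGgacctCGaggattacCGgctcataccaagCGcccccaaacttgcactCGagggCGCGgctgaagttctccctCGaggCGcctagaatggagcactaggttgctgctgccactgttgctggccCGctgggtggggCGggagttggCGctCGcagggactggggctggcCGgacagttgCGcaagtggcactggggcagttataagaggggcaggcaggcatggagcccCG
Lrsam1: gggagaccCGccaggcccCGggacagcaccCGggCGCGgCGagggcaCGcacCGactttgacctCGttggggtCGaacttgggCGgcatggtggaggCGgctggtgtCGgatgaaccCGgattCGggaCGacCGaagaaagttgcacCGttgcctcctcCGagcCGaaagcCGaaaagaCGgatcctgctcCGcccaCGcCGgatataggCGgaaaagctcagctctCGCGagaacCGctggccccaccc
Mamstr: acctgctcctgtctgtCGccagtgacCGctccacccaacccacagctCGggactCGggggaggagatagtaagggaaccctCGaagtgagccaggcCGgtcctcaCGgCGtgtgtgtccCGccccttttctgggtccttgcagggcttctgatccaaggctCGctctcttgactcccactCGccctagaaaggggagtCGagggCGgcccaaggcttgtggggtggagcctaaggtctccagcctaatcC
Tm9sf4: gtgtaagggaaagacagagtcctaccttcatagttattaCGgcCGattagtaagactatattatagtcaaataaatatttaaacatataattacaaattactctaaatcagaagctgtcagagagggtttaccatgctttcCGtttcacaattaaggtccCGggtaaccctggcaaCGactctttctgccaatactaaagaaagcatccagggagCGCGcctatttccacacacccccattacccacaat
Coq8a: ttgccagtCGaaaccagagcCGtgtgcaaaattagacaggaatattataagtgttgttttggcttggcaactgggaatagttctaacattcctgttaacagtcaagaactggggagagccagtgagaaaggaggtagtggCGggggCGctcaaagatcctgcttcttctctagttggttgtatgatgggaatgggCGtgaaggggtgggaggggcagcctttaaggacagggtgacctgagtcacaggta
Tm4sf19: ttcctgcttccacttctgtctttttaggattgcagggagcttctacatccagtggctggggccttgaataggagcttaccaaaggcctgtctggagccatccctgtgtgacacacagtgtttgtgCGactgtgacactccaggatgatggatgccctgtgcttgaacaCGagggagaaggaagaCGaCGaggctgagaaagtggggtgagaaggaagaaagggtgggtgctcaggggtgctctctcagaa
The Lep stretch held 16 CpG, that of Lrsam1 29 and that of Mamstr 13, against 7 for Tm9sf4, 5 for Coq8a and 4 for Tm4sf19.

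Lep encodes leptin, the satiety hormone that adipocytes secrete. Its FAD-only region, chr6:29059931-29060288 (358 bp, score 56.1), ran from 290 bases before to 67 bases after the start site and covered all 300 bases of the window (chr6:29059971-29060270, plus strand) with their 19 CpG. The score is the authors' own, at least 50 in every list, and its scale is not stated. The nearest ND peak (score 96.6) was 2266 bp away and the nearest HFD peak (score 142) 2084 bp away. Both lay upstream, and a FAD peak with score 93.6 overlapped them at -2920 to -2544 from the start site. An upstream region of Lep was therefore a peak in all 3 lists, and the region over the start was a peak with folic acid only, with a score close to the lowest the lists hold.

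The other starts differed in how much of the window was covered. Mamstr, which encodes a coactivator of MEF2 transcription factors, had a FAD-only region of 651 bp (score 60.8) over its whole window on chromosome 7, with an ND peak 143 bp and an HFD peak 286 bp away. Coq8a, a gene of coenzyme Q synthesis, had 288 of its 300 bases covered (chr1:180193377-180193723, score 71.9), and Tm4sf19, a tetraspanin family gene, 257 (chr16:32400299-32400626, score 74.5). The region at Tm9sf4 (chr2:153160776-153161114, score 73.0) covered 64 bases at the far end of the window. A region of score 58.4 (chr2:32961726-32962111) touched the windows of a divergent pair, Lrsam1, which encodes a ubiquitin ligase, and Rpl12, which encodes a ribosomal protein of the large subunit. It lay upstream of the Lrsam1 start and began 14 bases downstream of the Rpl12 start. Those are the 2 windows with 20 or more CpG, with 32 and 21.

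Further windows touched by a FAD-only region belonged to start sites inside longer gene records as well as at their beginning. Slc44a2, a choline transporter-like gene, had one from 4 bases before to 257 bases after a start site (score 72.7), and that site lies 17109 bp inside the gene record. Kiss1, which encodes the reproductive neuropeptide kisspeptin, had one from 600 to 75 bases before a start site that lies 5325 bp inside its record (score 68.9). Ptprc, which encodes the leukocyte marker CD45, had one from 18 bases before to 425 after a start site (chr1:138174701-138175144, score 69.1), with no HFD peak within 9403 bp and no ND peak within 51580 bp. Ptpn7, a phosphatase gene of lymphoid cells, had its window covered in full (score 54.7), with ND and HFD peaks 938 and 919 bp away. Of the 54 start sites, 35 lay within 100 bases of the start of their gene record, so the others are starts inside a longer record. As a whole the 54 windows were poor in CpG. The median was 6 CpG per window against 7 in all 31365 windows, and 3.70% of them had 20 or more CpG against 27.0% of all windows. Windows under regions found on all 3 diets were also short of such dense windows, with a median of 8 CpG and 6.81% with 20 or more, and the ND-only and HFD-only windows had 4.40% and 2.24%.

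**Figure D1:**
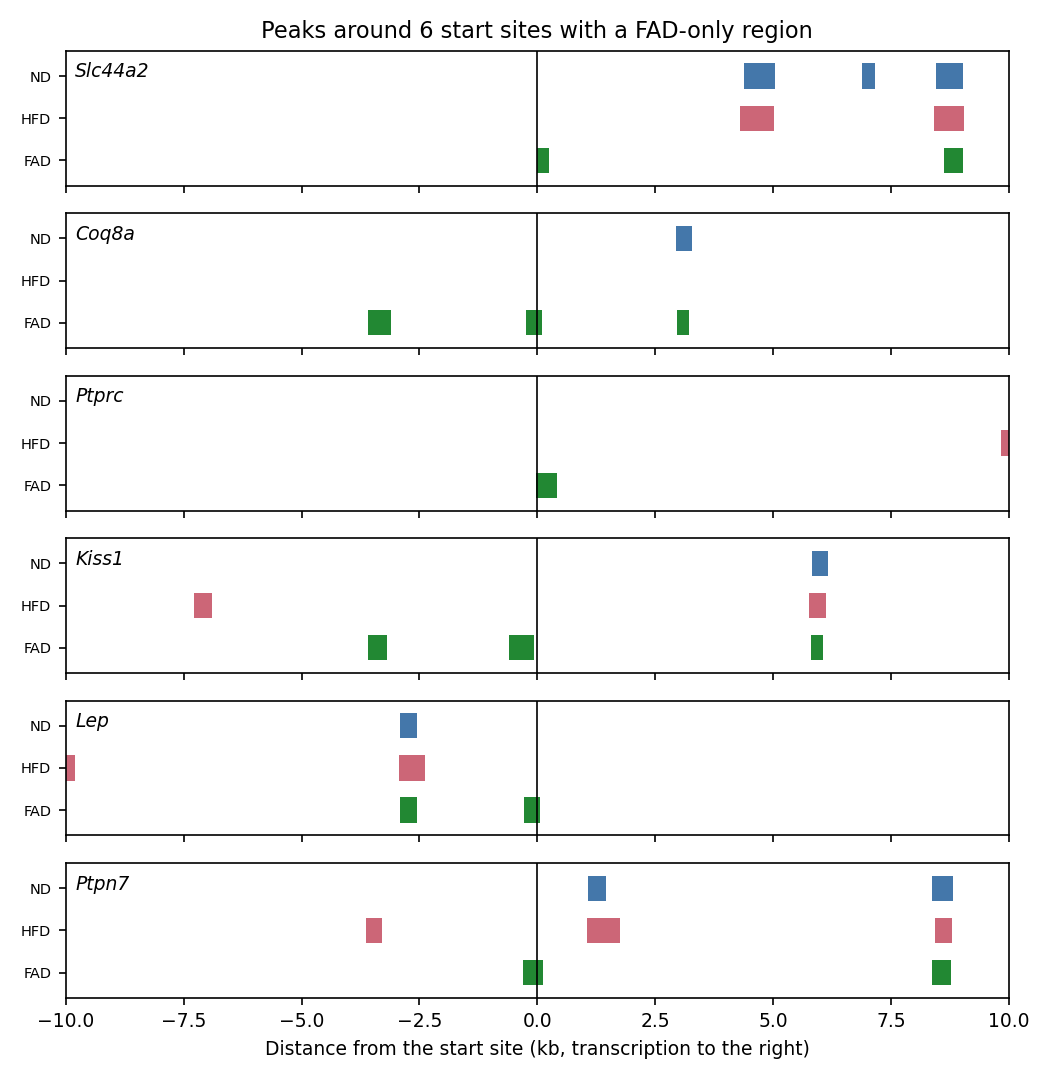
Peaks of the ND, HFD and FAD lists within 10 kb of 6 start sites, drawn in the direction of transcription with the start site at 0, each bar spanning 1 peak. Each panel has a FAD peak at or beside 0 that no ND or HFD peak overlaps, and in every panel but that of Ptprc other FAD peaks overlap ND or HFD peaks.

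Of 919 miRNA hairpins in the RefSeq table, 3 (0.326%) held part of a FAD-only region, and their mature sequences are given with the seed (bases 2 to 8) in capitals, because a hairpin is the smallest annotated unit that a region covered in full.
miR-127-5p: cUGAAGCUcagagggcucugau
miR-127-3p: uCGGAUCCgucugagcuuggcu
miR-490-5p: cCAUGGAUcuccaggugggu
miR-490-3p: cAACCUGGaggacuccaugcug
miR-3547-5p: gUGGGAAGagggguggggcccggga
miR-3547-3p: uGAGCACCaccccucucucag
No seed is shared among the 6. Mir127, an imprinted miRNA gene transcribed antisense to Rtl1, lay in full (70 bases, chr12:109592846-109592915) inside a region of 487 bp with score 81.0, with ND and HFD peaks 1813 and 4754 bp away. The 84-base hairpin of Mir490 also lay in full inside a region (chr6:36421560-36421846, score 68.1), and 80 of 88 bases of the Mir3547 hairpin lay in one of score 52.9. ND-only regions likewise met 3 hairpins, HFD-only regions 16 and regions found on all 3 diets 59.

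The FAD-only regions were mostly weak and narrow peaks. Their scores ran from 50 to 267 with a median of 64.2, 3643 (36.8%) lay under 60, 515 (5.21%) reached 100 and 28 reached 150. Their median width was 399 bp (range 169 to 2608), and together they spanned 3.98 Mb. ND-only regions had the same median score of 64.2 and a median width of 444 bp, HFD-only regions 67.7 and 508 bp, and regions found on all 3 diets 183 and 733 bp. A merged region takes the highest score of its peaks and spans all of them. The values for regions on all 3 diets are therefore raised in part by construction. The share of FAD peaks that were FAD-only fell from 32.9% in the lowest-scoring decile of the list to 13.7% in the fourth, 2.05% in the seventh and 0.0111% in the highest.

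**Figure D2:**
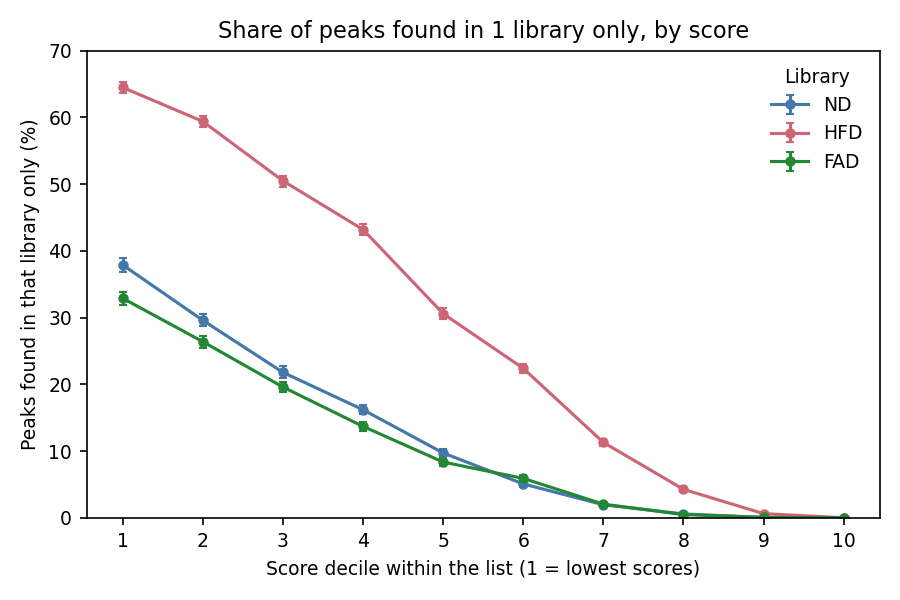
Share of the peaks of each library that overlap no peak of the others (percent, Wilson 95% intervals), by score decile within its list. The FAD share starts at 32.9% and the ND share at 37.9%, the HFD share starts at 64.5%, and all fall to under 0.1% in the highest decile.

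How many regions are specific to FAD depended on the lengths of the lists. ND-only regions were 12.5% of the regions with an ND peak (11804) and HFD-only regions 28.9% (37304). When each list was cut to its 90352 highest-scoring autosomal peaks, the FAD-only regions came to 15531 (17.6%, 17.3 to 17.8%), beside 15064 ND-only (17%, 16.7 to 17.2%) and 15026 HFD-only regions (16.7%, 16.5 to 17%). With lists of equal length each library thus had a like share of regions of its own, and 1 library per diet gives no measure of how much repeat libraries of 1 diet would differ. Across the 19 autosomes the FAD-only share of FAD regions ran from 10.1% on chromosome 9 (9.23 to 11%) to 12.7% on chromosome 14 (11.7 to 13.7%), at 3.67 to 4.80 regions per Mb.

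Within each score class of FAD peaks, the FAD-only ones were more often narrow. The rule asks for no base shared with an ND or HFD peak, which a narrow peak meets more easily, so this contrast carries no test. The narrowest decile of autosomal FAD peaks ended at 285 bp. At scores of 50 to 60, 4.04% of FAD-only peaks and 2.08% of FAD peaks shared with another library were that narrow, at 70 to 80 it was 20.9% and 11.8%, and at 100 and above it was 50.9% (46.6 to 55.2%) and, for shared peaks up to the highest score of a FAD-only peak, 11.6% (11.2 to 11.9%). Scores in that last class are not alike, since it takes shared peaks with scores up to 267, while only 28 FAD-only regions reached 150. In the other lists, of ND-only peaks with scores of 100 or more, 44.2% were in the narrowest ND decile, and of such HFD-only peaks 35.1% were in the narrowest HFD decile.

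**Figure D3:**
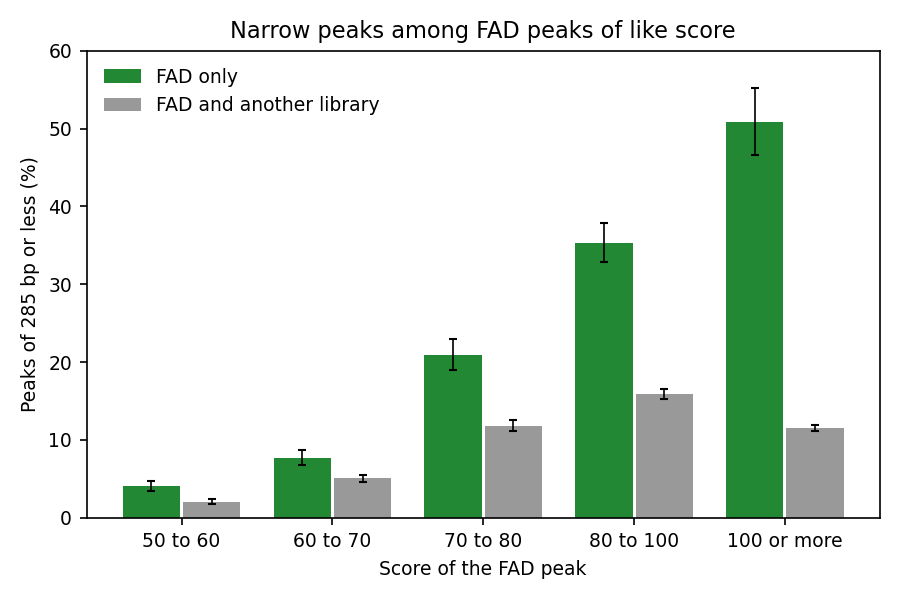
Share of FAD peaks that are 285 bp or narrower (percent, Wilson 95% intervals), by score, for FAD-only peaks and for FAD peaks that overlap an ND or HFD peak. The FAD-only share rises from 4.04% to 50.9% with score, and the shared one stays between 2.08% and 15.9%.

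Narrow peaks also carried the same scores again and again, a feature seen after the values were examined. The 12 most frequent scores among narrow FAD peaks, such as 77.8, 87.7, 98.0, 109 and 119.5, were held by 716 of the 1416 narrow FAD-only regions (50.6%) and by 355 of the 8471 wider ones (4.19%). Narrow shared FAD peaks held them in 53.6%, so the repeated values were about as frequent in narrow peaks of both kinds. Of the 262 narrow FAD-only regions with a score of 100 or more, 185 had 1 of these 12 scores. Regions with equal scores have no order among them, and rank within this set says little. The lists hold no read counts, so how many reads stand behind such a peak was not tested.

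Of the 10 highest-scoring FAD-only regions, 7 were 285 bp or narrower. After a region of 170 bp with score 267 on chromosome 1 came chr17:4626067-4626696 (630 bp, score 215), with ND and HFD peaks 821 and 801 bp away. Then came a 2608 bp region on chromosome 6 described further on and a 169 bp region in Pdcd2 (chr17:15526041-15526209, score 189.7), a gene named for programmed cell death. A region of 247 bp lay in Chchd10, a gene of the mitochondrial intermembrane space (chr10:75936716-75936962, score 176). Another of 169 bp lay in Cdh13, which encodes T-cadherin, a receptor for the adipocyte hormone adiponectin (chr8:118847205-118847373, score 169). Regions with score 154 and no ND or HFD peak within 5000 bp lay in Samd3, Akap6, Ubr7 and Slc22a23, with widths of 178, 215, 247 and 233 bp. Akap6 encodes an anchor protein for protein kinase A.

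The regions ranged from ones beside an ND or HFD peak to ones far from any. The median gap to the nearest ND or HFD peak was 3815 bp. There were 1088 regions (11%) with such a peak within 500 bp, 4190 (42.4%, 41.4 to 43.4%) with none within 5000 bp and 943 (9.54%) with none within 20000 bp. The nearest peak came from HFD in 7102 regions (71.8%), from ND in 2761 (27.9%) and from both at 1 distance in 24, and the HFD list is also the longest. The region farthest from any other peak was chr1:99953044-99953583 in Cntnap5b, a contactin-associated protein gene (score 67.5), with 128489 bp to the nearest HFD and 128494 bp to the nearest ND peak. ND-only regions had a median gap of 3482 bp and HFD-only regions of 6109.5 bp.

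**Figure D4:**
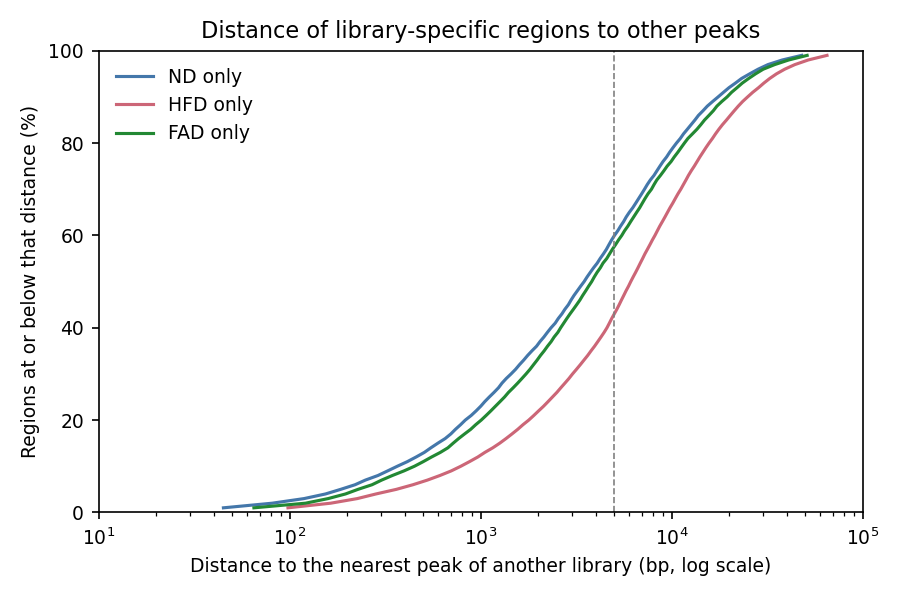
Cumulative share of ND-only, HFD-only and FAD-only regions (percent) by distance to the nearest peak of either other library, on a log scale, with a dashed line at 5000 bp. At that line 42.4% of FAD-only, 40.1% of ND-only and 57.1% of HFD-only regions still had no other peak.

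The rule has a hard edge at 1 bp. On its inner side, 1 FAD-only region touched an HFD or ND peak with 0 bp between (chr3:151173467-151173925, score 55.3), and 80 more lay within 1 to 50 bp of one, with a median score of 59.9 and a median width of 453 bp. On its outer side, 48 FAD peaks shared 1 to 50 bp with an ND or HFD peak, with a median score of 57.9 and a median width of 472 bp. Regions at the edge thus had like values on both sides.

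By midpoint, 5241 FAD-only regions (53.0%, 52.0 to 54.0%) lay in a gene record and 4317 (43.7%) in a protein-coding one. This was a smaller share than among FAD peaks of like score that were shared with another library at scores under 100: 52.3% against 59.0% at scores of 50 to 60, 53.1% against 58.6% at 60 to 70, 51.9% against 58.3% at 70 to 80, and 55.2% against 59.0% at 80 to 100. At 100 and above the shares were 55.1% (50.8 to 59.4%) and 54.0% (53.6 to 54.5%), and these intervals overlap. ND-only regions lay in gene records in 55.3%, HFD-only regions in 57.8%, regions of ND and FAD in 52.8% and regions of ND and HFD in 62.2%. The FAD-only regions beyond 20000 bp from any other peak lay in gene records in 43.5% (40.3 to 46.7%), and those 500 to 5000 bp away in 56.5% (55.1 to 58.0%).

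A gene end was taken as the window from 2000 bp outside to 500 bp inside either end of a gene record, since the gene table gives no strand. Of the FAD-only regions, 1037 (10.5%, 9.90 to 11.1%) met such a window of any gene and 405 (4.10%) one of a protein-coding gene. ND-only regions met one of any gene in 11.3%, HFD-only regions in 11.5%, regions of ND and FAD in 11.2% and regions on all 3 diets in 13.5%. The last are wider (median 733 bp, against 399 bp for FAD-only regions), and a wider region meets a window more easily. Where the promoter table gave the strand, 141 regions met only 5′ ends, 170 only 3′ ends and 16 both. In all, 437 of 20665 autosomal protein-coding genes (2.11%) had a FAD-only region at an end, and 286 of these had no region with an ND or HFD peak at either end.

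At the ends of named protein-coding genes the highest score was 142. It belonged to a region of 215 bp at the 3′ end of Mrps18c, a mitochondrial ribosomal protein gene, which also lay inside Abraxas1, a gene of the BRCA1-A repair complex (chr5:100806084-100806298). Another lay 5′ of Mrpl9, also of the mitochondrial ribosome (chr3:94440909-94441183, score 131), with the nearest HFD peak at 6509 bp and the nearest ND peak at 61511 bp. One between the 3′ end of the Fanconi anaemia gene Fancg and the 5′ end of Vcp, which encodes the ATPase p97, also had score 131 (chr4:43001767-43001995). Tank, a regulator of TRAF signalling, had one at its 3′ end (score 119.5) with no other peak within 31954 bp. The other 6 of the first 10 lay at Zfp433, Kifc1, Gpn3, Slfn2, Olfr1057 and Wfdc15a, with scores from 119 to 131.

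Whether a gene record held a FAD-only region went with its length. Of all 20665 protein-coding genes, 3095 (15.0%) had a region in the record, from 0.919% of the shortest 4133 (up to 4.39 kb) to 44.0% of the longest 4133 (from 57.9 kb). Gene ends, whose windows have nearly 1 size, ranged from 1.69% to 2.44% over the 5 length classes. The median record with a region was 78.2 kb long against 17.5 kb for all. Camta1, a calmodulin-binding transcription factor gene, and Wwox, an oxidoreductase gene at a fragile site, held 10 regions each, Ctnna3 (alpha-T-catenin) 9, Auts2 and Prkce (protein kinase C epsilon) 8 each. These records are 802, 913, 1574, 1106 and 490.1 kb long. The FAD-only share of the FAD regions in these records was 15.6% in Camta1, 11.6% in Wwox, 20.5% in Ctnna3 and 17.8% in both Auts2 and Prkce, beside 11.2% over the genome, and these genes were picked for their counts. There were 2269 genes with 1 region in the record, 775 with 2 to 4 and 51 with 5 or more.

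Genes of the folate and methionine cycles were met mainly inside their records. Of 51 such genes, 2 had a FAD-only region at a gene end (3.92%, against 2.11% of all genes), beside 2 with an ND-only and 5 with an HFD-only one. In the record 10 had a FAD-only region (19.6%, against 15.0%), beside 6 with an ND-only and 19 with an HFD-only one. The median record was 21.5 kb long. Both FAD-only gene-end regions were at 3′ ends. Gldc, which encodes the glycine-cleaving decarboxylase, had 476 bp there (chr19:30098579-30099054, score 64.6), and Amn, whose product takes part in vitamin B12 uptake, had 287 bp (score 54.9). Mthfd1l, a mitochondrial formate-producing enzyme gene, held 5 regions with scores up to 105, beside 3 ND-only and 3 HFD-only regions in the same record. Folr2, which encodes a folate receptor, held 1 of 275 bp (chr7:101853413-101853687, score 77.8), 18131 bp from any HFD and 23102 bp from any ND peak. The betaine pathway neighbours Bhmt and Dmgdh held 1 each (scores 73.9 and 73.6), and Mthfs, Mthfd1, Mtfmt and Gnmt 1 each with scores from 51.3 to 65.2.

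Of 31 genes that write, erase or read DNA methylation, none had a FAD-only region at a gene end (2.11% of all genes did, which in a list of 31 is under 1 gene), where none had an ND-only and 4 an HFD-only one. In the record there were 5: the histone methyltransferase gene Setdb1 (score 79.9), Tet1, which encodes a methylcytosine dioxygenase (2 regions, up to 71.5), Mbd5 (3 regions, up to 68.9), and the methyltransferase genes Dnmt3a (59.2) and Dnmt1 (57.5). The Dnmt3a region lay 48 bp from an HFD peak and 28767 bp from the nearest ND peak. At 16.1% this share in records was near that of all genes (15.0%).

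Genes of insulin action and fat metabolism were met at their ends in 1.85% to 2.44%, near the 2.11% of all genes. Of 52 insulin signalling genes, Irs1, the insulin receptor substrate, had 1 at its 3′ end (chr1:82233230-82233476, 247 bp, score 98.0) and no other peak within 10337 bp. In the record there were 15 (28.8%, against 15.0% of all genes, median length 68.8 kb), beside 19 with an ND-only and 33 with an HFD-only region. Among the 15 were Foxo3 (score up to 112), the mTOR complex gene Rptor (4 regions, up to 87.7), the GTPase-activating protein gene Tbc1d4 (86.4), Insr (60.0) and Akt1 (56.2). Of 41 adipogenesis and adipokine genes, Lep alone was met at an end, and the 7 met in the record included Ebf1 (92.0), the fatty acid transporter gene Cd36 (65.7) and Pparg, the master regulator of adipocyte differentiation (62.4, 21256 bp from any HFD and 51820 bp from any ND peak). Of 54 lipid metabolism genes, Mlxipl, which encodes the carbohydrate-response factor ChREBP, was met at its 5′ end (chr5:135088706-135089124, score 71.3), and 9 were met in the record, among them the acetyl-CoA carboxylase genes Acacb (77.8) and Acaca (64.0) and the lipase gene Mgll (72.7).

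Thermogenic and inflammatory genes had no FAD-only region at a gene end, 0 of 37 and 0 of 57, where 2.11% of all genes had one, a share that comes to about 1 gene in a list of this size. In records, where 15.0% of all genes were met, it was 8 of the 37 (21.6%), beside 8 with an ND-only and 15 with an HFD-only region. Those with FAD-only regions were led by Ppargc1a, the coactivator of mitochondrial biogenesis (3 regions, up to 98.0), and Prdm16, a brown-fat regulator (4 regions, up to 88.1). Of the 57 inflammation genes 4 were met (7.02%, median length 10.6 kb), namely Itgam (119.5), Adgre1 (65.6), Nfkb1 (61.8) and Ikbkb (59.8). Itgam and Adgre1 encode the myeloid markers CD11b and F4/80. Among 8 leukocyte markers, these and Ptprc were met in the record and none at an end. In the record 0 of the 8 had an ND-only and 5 an HFD-only region, and their median record was 40.7 kb long, against 17.5 kb for all genes. Of the 8 adipocyte markers Lep was met at an end, of 5 endothelial ones Vwf, of 6 of mesothelium and fibroblasts Wt1, and of 5 of epididymis none. In records, Pparg was met among the adipocyte markers, Pecam1 and Vwf among the endothelial ones, and none of the remaining markers. A share of different cells in each library cannot be told apart from methylation within cells.

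Matrix, cAMP and imprinted genes each had 3 FAD-only gene ends, beside 2.11% of all genes at gene ends and 15.0% in records. In the same order, 1, 0 and 1 of these genes had an ND-only region at an end, and 5, 8 and 6 an HFD-only one. Of 57 matrix genes (5.26%) these were Eln, which encodes elastin (score 90.5), Col15a1 (70.5, but 330 bp from an HFD peak) and Timp2, a metalloproteinase inhibitor gene (53.1, at its 5′ end). Of 50 cAMP genes (6.00%) they were Creb3l2 (77.5), Crtc1 (56.4) and Pde4d (52.3). In records 20 of the 50 were met (40.0%), beside 23 with an ND-only and 41 with an HFD-only region. The 40.0% was the highest FAD-only share among the pathway lists, and the median record of cAMP genes is also the longest, 98.8 kb. Pde4d, a phosphodiesterase gene, held 6 regions beside 4 ND-only and 19 HFD-only ones. Of 50 imprinted genes (6.00%) they were Peg10 (77.4), Ampd3 (68.1) and Blcap (58.0), and 11 were met in the record, led by Commd1 (131) and Ddc (119.5). Among the genes of these lists with a FAD-only end, Col15a1, Peg10 and Ampd3 also had ND and HFD peaks at an end. Creb3l2 and Crtc1 had an HFD peak at an end, and the others had neither. Germline genes had a FAD-only end in 1 of 60, Brdt (51.9), clock genes in 0 of 25 and housekeeping genes in 1 of 51, Vcp.

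Of gene families defined by symbol, olfactory receptors were met at 9 of 1104 gene ends (0.815%, 0.429 to 1.54%) and vomeronasal receptors at 2 of 352 (0.568%, 0.156 to 2.05%), against 2.11% of all genes. ND-only and HFD-only regions met olfactory receptors at 10 and 43 ends (0.906% and 3.89%), where over all genes they met 2.92% and 9.71%. Solute carriers were met at 14 of 362 (3.87%, 2.32 to 6.39%), led by Slc35b2, beside 3.04% for ND-only and 14.4% for HFD-only regions. Zinc finger genes were met at 7 of 388 (1.80%). Hox genes were met at 4 of 39 (10.3%, 4.06 to 23.6%), beside 2 with an ND-only (5.13%) and 6 with an HFD-only region (15.4%). All 4 Hox genes with a FAD-only region at an end lay in the Hoxc cluster.

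The longest run of FAD-only regions, with no other region between, was 5 and lay in that cluster (chr15:102947033-102979305). Hox genes encode homeodomain factors that set position along the body axis, and fat depots keep depot-specific Hox expression. The cluster was singled out after its values were seen. From Hoxc13 to Hoxc4 (116 kb) the lists held 2 ND, 6 HFD and 9 FAD peaks over 748, 4558 and 6338 bp. These merged into 12 regions, of which 6 were FAD-only, 3 HFD-only, 1 of HFD and FAD, 2 of all 3 and none ND-only. The FAD-only regions lay in the record of Hotair, a long non-coding RNA gene (score 89.7), beside Hoxc11 (261 bp, 77.8), before Hoxc10 (56.1), in Hoxc9 (992 and 893 bp, 53.2 and 55.8) and in Hoxc6 (chr15:103010581-103011457, 89.3). The first 5 had no ND peak within 39442 bp, in a cluster with 2 ND peaks. The nearest HFD peak lay 5330 and 4337 bp from the regions in Hoxc9 and 17751 bp from the one before Hoxc10. In the other clusters 0 of 8 Hoxa regions, 1 of 14 Hoxb regions (score 52.4) and 0 of 8 Hoxd regions were FAD-only.

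**Figure D5:**
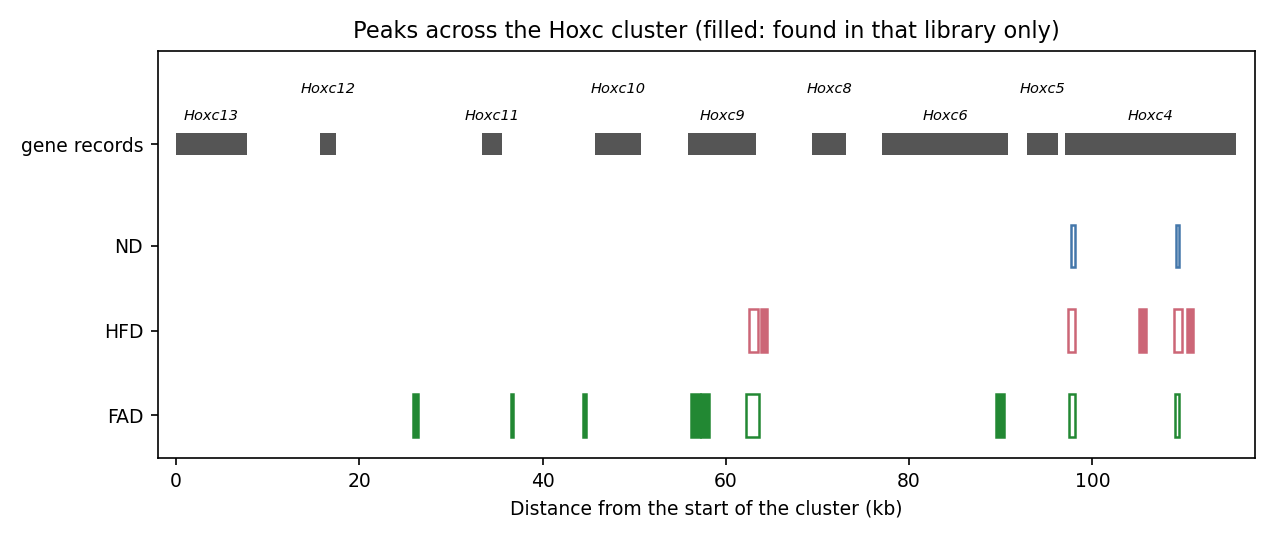
Peaks of the 3 libraries across the Hoxc cluster (116 kb, kb from its start) under the protein-coding gene records, filled where found in that library only. FAD has 6 filled peaks, 5 of them in the left 60 kb, where ND and HFD have none, and HFD has 3.

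Runs were otherwise short. Of the 9887 regions, 1125 (11.4%) had another FAD-only region as a neighbour and 129 lay in the 42 runs of 3 or more. Of ND-only regions 14.1% lay in runs of at least 2, and of HFD-only regions, the more numerous, 44.2%. The next longest run, of 4, lay at the vomeronasal receptor gene Vmn2r40 (chr7:8895945-8958903). Among the 23571 windows of 100 kb with any region, 7866 held a FAD-only region and 290 held 3 or more. For ND-only regions these counts were 8819 and 507, and for HFD-only regions 17460 and 5454.

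Some dense places held FAD peaks at repeated distances, and these too were picked after their values were seen. The spacing of ND and HFD peaks there was not measured, so the repeated distances are not shown to be particular to FAD. The window with the most FAD-only regions, chr6:114500001-114600000, held 9 together with 5 ND-only and 4 HFD-only regions among 28 that overlap it, and no protein-coding gene. Its FAD-only regions were wide (752 to 1054 bp), as were the ND peaks (970 to 1097 bp) and HFD peaks (726 to 1309 bp) there. Of the 18 gaps between neighbouring FAD midpoints, 9 were 2174 to 2559.5 bp and the other 9 were 4729 to 14586 bp. On chromosome 17 (chr17:21100001-21200000), 5 of 9 regions were FAD-only, and FAD midpoints, each to the next but one, lay 22314 to 23250.5 bp apart. Around Rn4.5s on chromosome 6, a gene of the small 4.5S RNA family, 4 of the 9 regions within 100 kb were FAD-only. These 4 are among the 5 widest of all (2098 to 2608 bp), with scores of 191, 60.9, 57.1 and 52.9, and the other of the 5 lay in Flg, the filaggrin gene, whose exon is itself repetitive (2235 bp, 65.5). The ND list also had wide peaks around Rn4.5s, among them an ND-only peak of 2509 bp (score 205) and a peak of 2741 bp (score 245) that overlapped a FAD peak. Only 39 FAD-only regions were 1000 bp or wider. The sources used here do not say how reads with several placements were handled, and the part of such reads in these places was not tested.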

How the data were processed

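MeDIP-seq of epididymal fat was analysed in 3 libraries (1 for each diet; the labels give the groups). The deposited files are peak lists, the submitters' processing notes name mm10 as the build, and the lists carry peak names of the MACS caller, and each peak has the authors' score, of unstated scale. The sources used here give neither the aligner nor the caller's settings and control, the depth, or how duplicate or multiply placed reads were handled. A peak missing from a list means only that nothing there passed the calling threshold. Scores served to order and select peaks inside 1 list, and a merged region took the highest score of its peaks.

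Peaks were merged at 1 bp of overlap. The merging was tested on simulated data (all patterns of 5600 regions recovered), and bedtools gave the same 9887 members. Places in records were set by midpoint. Gene, promoter and miRNA positions and sequences came from RefSeq tables of GRCm38.p6, in which 16457 of 20665 autosomal protein-coding genes had a strand. The promoter table lists none on chromosome 18. Exons, UTRs and introns were not analysed here. With 1 library per diet, no test was run. Named regions were those with the highest scores, the widest, the highest-scoring with no ND or HFD peak within 5000 bp and the highest-scoring at gene ends, with list members at gene ends and then by score, passing over Gm and Rik symbols. The members, lists and families were chosen with earlier results of these data known. Alternatives were other overlap rules, score limits, equal list lengths, X and Y, and other windows. Overlaps used bedtools 2.31.1 and own code in Python 3.11.15 with pandas 2.3.3, numpy 2.4.6 and scipy 1.17.1, and plots matplotlib 3.10.9.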

Additional observations from a re-analysis of the deposited data

How the results depend on the processing

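Values are given in the order FAD-only regions, their percent of FAD regions, percent in gene records, percent at gene ends, percent with no other peak within 5000 bp, and protein-coding genes with a FAD-only gene end. With a reciprocal overlap of 50% they were 15625, 17.3, 55.2, 11.2, 26.8 and 710, where the 17.3% is of the 90352 autosomal FAD peaks and not of merged regions. With the 50% highest-scoring peaks of each list they were 4394, 9.90, 56.5, 10.8, 67.7 and 220. With equal list lengths they were 15531, 17.6, 54.1, 10.8, 49.8 and 720. With FAD scores of 100 or more they were 515, 1.23, 55.1, 10.3, 52.2 and 23. When peaks within 500 bp counted as shared, the share was 9.74% (also of the 90352 FAD peaks) and the isolated part 47.6%. The rise of the isolated part follows from taking out the regions nearest to another peak, and 397 genes were left. With X and Y, 50.1% lay in records and 43.7% were isolated. With windows of 1000 bp on each side of a gene end, 8% of regions lay at one, and with 20000 bp in place of 5000 bp, 9.54% were isolated. The score limits and the 50% overlap change which regions exist by construction. Lep, Ptprc, Kiss1, Slc44a2 and Coq8a were no longer FAD-only at their promoters with the 50% highest-scoring peaks or with scores of 100 or more, since their own scores lie below those limits, and the Irs1 region was lost under the latter. With the 50% highest-scoring peaks, 769 of the 4394 FAD-only regions (17.5%) were among the 9887, and the others became FAD-only when a weaker ND or HFD peak was left out. None of the 6 Hoxc regions and 1 of the 54 promoter windows was kept, and 1 other Hoxc region and other windows, for a total of 24, took their place. Of the 82 named regions, 26 were still FAD-only with that setting and 75 with the 500 bp rule. No paired analysis was possible because there was 1 library per diet.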

Other observations

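The sex chromosomes lie outside the rule for the regions described, and the merged X and Y regions are given as values only. On X, 353 of 2756 regions with a FAD peak were found with FAD only (12.8%, 11.6 to 14.1%), beside 534 of 3057 ND regions with ND only (17.5%) and 571 of 3098 HFD regions with HFD only (18.4%). On Y, 387 of 2224 FAD regions were found with FAD only (17.4%, 15.9 to 19%), beside 400 of 2280 ND regions (17.5%) and 187 of 1864 HFD regions (10.0%, 8.75 to 11.5%). The HFD share, the highest of the 3 on the autosomes and on X, was thus the lowest on Y, and the highest score of a FAD-only Y region was 253. Repeated scores of narrow peaks were not particular to folic acid. The 12 most frequent scores of narrow peaks in each list were held by 52.8% of narrow ND-only peaks and 65.0% of narrow HFD-only peaks, beside 1.90% and 0.0924% of the wider ones.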
